A study of Mus musculus with 5 samples.

Results

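The neurons that the deposited annotation names Th are 232 cells of the 3352 cells in 5 untreated wild-type adult C57BL/6 mice, and they were taken by that name without any further selection. The cells came from lumbar dorsal root ganglia (DRG), the clusters of sensory neuron bodies beside the spinal cord, which were dissociated with collagenase and trypsin, cleaned on a Percoll gradient and captured in droplets with the 10x Genomics Chromium 3′ kit. In this assay each captured transcript carries a unique molecular identifier (UMI), and a count is the number of UMIs of a gene in a cell. The mice were of both sexes and shared genotype and treatment, so the Th neurons were compared with other cell types of the same animals: 2815 cells of 11 other neuron types, 249 satellite glia and 56 endothelial cells. Each of the 5 libraries named in the cell labels was taken as a mouse, numbered 1 to 5 in the order of the library identifiers, and no library was tied to a sample label or a sex. The study drew up its cell types from these same counts, so a difference between Th and another type says how far apart the types lie and is no independent evidence that Th is a type.

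Neurons of this kind are known as C-fibre low-threshold mechanoreceptors (C-LTMRs). Their thin unmyelinated axons end around hair follicles of hairy skin and respond to slow, gentle stroking rather than to painful force. In the mouse they are recognised by tyrosine hydroxylase (TH), the rate-limiting enzyme of catecholamine synthesis, by the vesicular glutamate transporter VGLUT3 and by the secreted protein TAFA4, and they belong to the broader group of small neurons that depend on the transcription factor RUNX1.

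Th neurons made up 9.15% (95% interval 5.21 to 14.6%) of the cells in mouse 1, 10.8% (95% interval 8.27 to 13.7%) in mouse 2, 8.02% (95% interval 5.74 to 10.8%) in mouse 3, 7.58% (95% interval 5.85 to 9.63%) in mouse 4 and 4.38% (95% interval 3.36 to 5.60%) in mouse 5, with exact Clopper-Pearson intervals for counting error only. The number of Th cells was 15, 58, 38, 61 and 60 in the same order. The share was lowest in mouse 5, which gave the most cells, and the mean over mice was 7.98 ± 2.36% (SD, n = 5). Dissociation and capture also set such shares, and fewer cells of a type in the tissue cannot be told apart from cells lost on the way. Of 7 cell barcodes that occurred in more than 1 library, 1 belonged to a Th cell.

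The UMIs of the Th cells of a mouse were added up, giving 1037872 to 4485331 UMIs per mouse, and each sum was divided by its total and multiplied by 1000000 to give CPM. Below, a level is the mean CPM over the 5 mice with its SD, and a log2 fold change of Th over the other neurons is given with its standard error (SE) from edgeR's quasi-likelihood test and a Benjamini-Hochberg adjusted p over 11773 genes. A gene was called higher or lower at an adjusted p under 0.01 and a change of at least 2-fold, with a UMI in at least 25% of the Th cells (higher) or of the other neurons (lower). By this rule 722 genes, 6.13% of those tested, were higher in Th neurons and 839, or 7.13%, were lower. Because the assay reads 3′ ends, levels were compared within a gene and not between genes.

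The markers set for the annotation's name were high in these cells. The name was given from these same counts, so this is no independent check of it. Th, on chromosome 7, measured 946, 920.3, 656, 677 and 538 CPM in the Th neurons of mice 1 to 5 and 4.33, 15.4, 8.95, 8.80 and 5.59 CPM in the other neurons. The lowest Th neuron sum lay far above the highest sum of other neurons, and the groups did not overlap. The log2 fold change was 6.44 ± 0.31 (adjusted p = 1.8e-10). Slc17a8, which encodes VGLUT3 and lies on chromosome 10, measured 78.04, 65.3, 71.01, 86.6 and 86.4 CPM in Th neurons against 0.879 ± 0.167 CPM in the others, a log2 fold change of 6.54 ± 0.16. Its level was the steadiest of the 3 naming markers across mice. Ceacam10, a gene of the carcinoembryonic antigen family on chromosome 7, measured 429.7, 183, 353, 94.9 and 109.7 CPM against 0.184 ± 0.179 CPM, a log2 fold change of 10.38 ± 0.59. It was high in mice 1 and 3 and low in mice 4 and 5, so its spread between mice was wide while every mouse stayed above the other neurons.

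**Figure D1:**
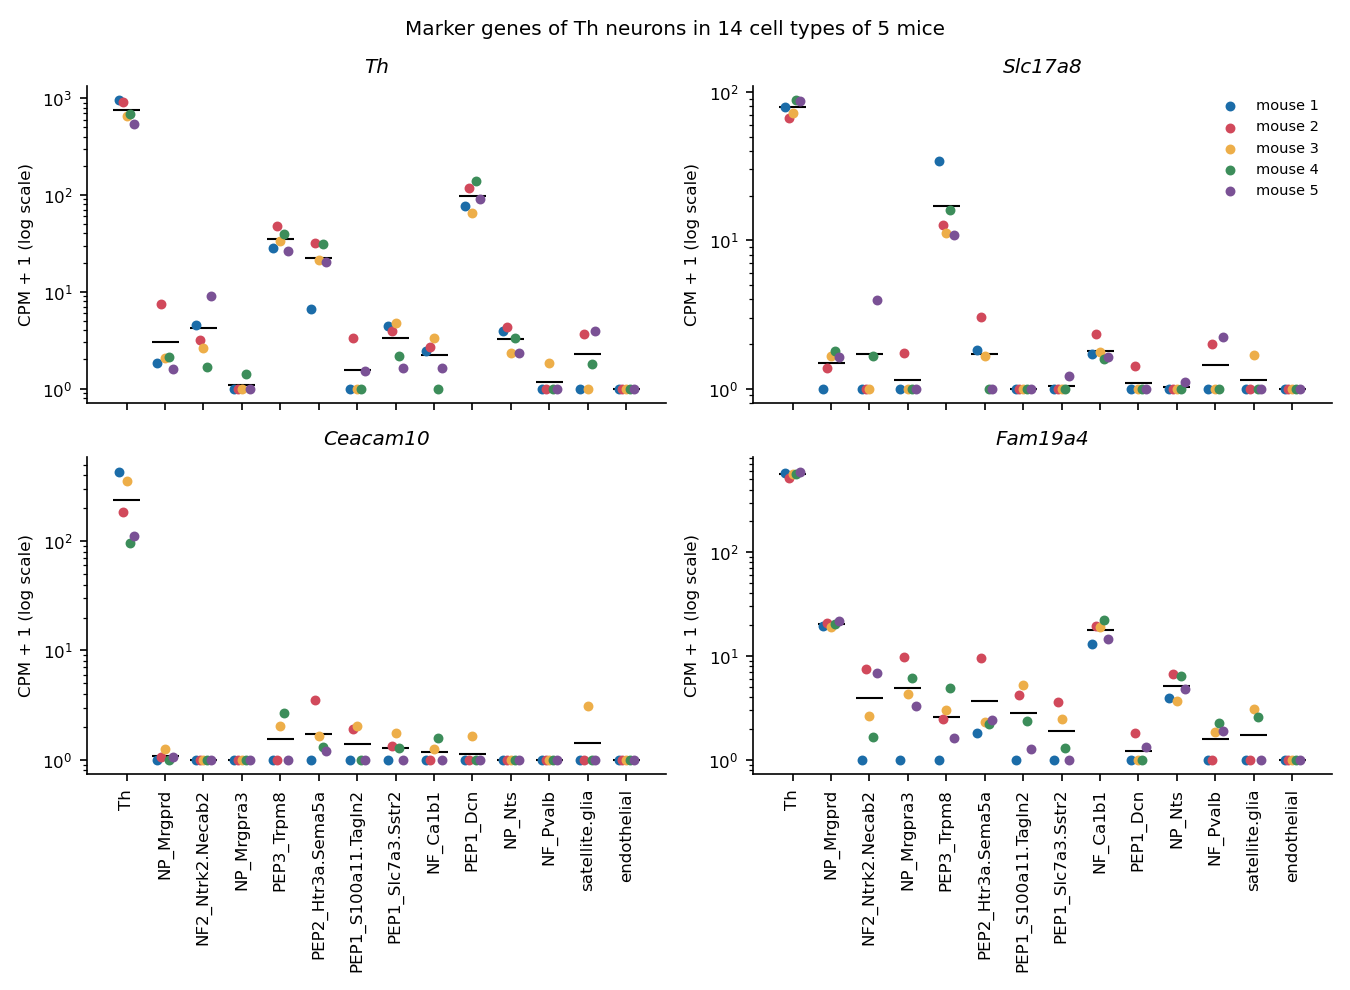
CPM plus 1, on a log axis, of Th, Slc17a8, Ceacam10 and Fam19a4 in 14 cell types, with a point for each of 5 mice and a black line for the mean. Th neurons stand at the left at means of 747, 77.48, 234 and 561 CPM, above each other type in each mouse. PEP1_Dcn has the next highest Th level and PEP3_Trpm8 the next highest Slc17a8 level.

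After the Th neurons, the order of the other types differed from marker to marker. For Th, PEP1_Dcn came next at 96.4 ± 29.99 CPM, followed by PEP3_Trpm8 at 34.1 ± 8.87 CPM and PEP2_Htr3a.Sema5a at 21.1 ± 10.1 CPM. Mouse by mouse PEP1_Dcn ranged from 64.49 to 138 CPM and PEP3_Trpm8 from 25.3 to 46.9 CPM, without overlap, while PEP3_Trpm8 and PEP2_Htr3a.Sema5a overlapped. The highest of the 8 other neuron types was NF2_Ntrk2.Necab2 at 3.20 ± 2.86 CPM. For Slc17a8, PEP3_Trpm8 came next at 15.96 ± 9.76 CPM. For Ceacam10 it was PEP2_Htr3a.Sema5a, at 0.739 ± 1.04 CPM. Ceacam10 belongs to a family of closely related genes, and how their shared reads were counted is not known here.

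Fam19a4, which encodes TAFA4 and lies on chromosome 6, varied little between mice. It measured 576, 517, 560.5, 557 and 594 CPM in mice 1 to 5, against 10.8 ± 1.5003 CPM in other neurons, a log2 fold change of 5.72 ± 0.14 (adjusted p = 1.3e-13). NP_Mrgprd, a group of non-peptidergic nociceptors, came next at 19.2 ± 1.11 CPM, followed by NF_Ca1b1 at 16.6 ± 3.72 CPM.

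The sequences upstream of 4 genes are shown because Th, Slc17a8, Ceacam10 and Fam19a4 transcripts set the type apart from the other neurons. They are the 250 bases before the RefSeq transcription start in GRCm38.p6, written 5′ to 3′ along the gene, with the most upstream start taken where RefSeq lists more than 1. Capitals mark a match on either strand to the RUNX motif TGTGGT, to the cAMP response element TGACGTCA or to the E-box CACGTG. The intervals are chr7:142899996-142900245, minus strand for Th, chr10:89621250-89621499, minus strand for Slc17a8, chr7:24776917-24777166, plus strand for Ceacam10 and chr6:97060412-97060661, minus strand for Fam19a4.
Th: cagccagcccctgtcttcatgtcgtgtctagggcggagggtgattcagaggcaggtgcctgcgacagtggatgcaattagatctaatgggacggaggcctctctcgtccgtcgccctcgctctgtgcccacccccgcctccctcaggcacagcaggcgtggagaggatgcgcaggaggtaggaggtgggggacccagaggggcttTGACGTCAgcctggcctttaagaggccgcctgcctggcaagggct
Slc17a8: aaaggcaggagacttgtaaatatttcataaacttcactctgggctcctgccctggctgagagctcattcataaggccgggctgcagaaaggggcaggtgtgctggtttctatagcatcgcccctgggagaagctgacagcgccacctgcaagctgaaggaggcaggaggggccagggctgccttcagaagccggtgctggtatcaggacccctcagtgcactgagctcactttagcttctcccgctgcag
Ceacam10: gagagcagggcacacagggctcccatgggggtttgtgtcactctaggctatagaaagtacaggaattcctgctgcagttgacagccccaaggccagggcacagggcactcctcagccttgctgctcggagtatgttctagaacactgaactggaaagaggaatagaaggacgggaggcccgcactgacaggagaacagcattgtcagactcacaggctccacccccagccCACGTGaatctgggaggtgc
Fam19a4: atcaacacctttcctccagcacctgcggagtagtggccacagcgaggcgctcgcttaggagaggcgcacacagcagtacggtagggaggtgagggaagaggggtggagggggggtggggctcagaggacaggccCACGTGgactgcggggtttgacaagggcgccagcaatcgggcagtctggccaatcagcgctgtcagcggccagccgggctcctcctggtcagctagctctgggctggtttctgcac

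The Th window held 1 cAMP response element, which began 45 bases before the start. Its letters occurred in 1.55% of 32851 RefSeq windows of the same length. The Ceacam10 and Fam19a4 windows held 1 E-box each, a motif in 6.02% of all windows, and the RUNX motif, in 14.05%, was in none of the 4. There were 109 genes with a higher level in Th neurons than in each other neuron type, and 81 of them had a window. The RUNX motif was in 8 of these (9.88%, against 15.9% of all 27025 genes with a window), the cAMP response element in 2 (2.47% against 1.77%) and the E-box in 12 (14.8% against 6.86%). A match of letters is a description of the window, and binding was not measured.

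Of the 13 genes listed for C-LTMRs, 12 were higher in Th neurons than in the other neurons, and their median log2 fold change was 4.49 beside 0.02 for all genes tested. These genes are known for this type and in part were the study's own markers, so the count describes the cells and is not independent evidence. Of these genes, 6 also exceeded each of the 11 other neuron types: Th, Slc17a8, Ceacam10, Fam19a4, Cdh9 and Zfp521. Cdh9, a cadherin, was at 12.2 ± 1.33 CPM against 0.383 CPM in the other neurons, and Zfp521, a zinc-finger transcription factor, at 192 ± 32.51 against 8.49 CPM.

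Most of the remaining genes were shared with another type. P2ry1, an ADP receptor, measured 374, 644, 439, 437 and 347 CPM in Th neurons, and the log2 fold change over other neurons was 4.49 ± 0.20. NF2_Ntrk2.Necab2, a neurofilament-rich type marked by the BDNF receptor TrkB, had 435 ± 151 CPM of it, and the difference between these types was -0.02 ± 0.20 on the log2 scale (adjusted p = 0.95). Piezo2, the mechanically gated channel of touch neurons, measured 627, 712, 614, 839.9 and 756 CPM, with a log2 fold change of 1.97 ± 0.12, and NF2_Ntrk2.Necab2 again came next at 546 ± 47.46 CPM. That pair differed by 0.34 ± 0.22 (adjusted p = 0.21). The transcription factor Pou4f2 stood at 49.2 ± 4.16 CPM in Th neurons and 46.9 ± 9.61 in NF2_Ntrk2.Necab2, and Cacna1h, the T-type calcium channel Cav3.2, at 33.46 ± 5.27 and 129.7 ± 16.02 CPM. Cacna1h was thus higher than in the other neurons together (log2 fold change 2.27 ± 0.15) and lower than in NF2_Ntrk2.Necab2 (-1.99 ± 0.22, adjusted p = 1.8e-11).

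Gfra2, the co-receptor for neurturin, measured 308, 337, 323, 356 and 368 CPM in Th neurons, and NP_Mrgprd came next at 175 ± 8.36 CPM. The difference between them was 0.80 ± 0.28 (adjusted p = 0.013) and was not called. Runx1 was the only gene of the list not called higher, at 220.2 ± 6.68 CPM against 126 ± 6.27: its log2 fold change of 0.83 ± 0.09 passed the test but not the 2-fold limit, and PEP3_Trpm8 stood level with it at 234 ± 17.55 CPM. Phf24, which encodes the G protein-interacting protein GINIP, measured 205 ± 18.1 against 85.8 ± 3.33 CPM.

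Th, Slc17a8 and Fam19a4 were found in most of the annotated cells and Ceacam10 in fewer. A UMI of Th was found in 91.8% of Th cells, of Slc17a8 in 93.53%, of Ceacam10 in 61.2% and of Fam19a4 in 99.6%, at a median of 56281 UMIs per cell. After every cell was thinned to 10000 UMIs, Th was found in 82.3% of Th cells, 5.93% of other neurons and 1.61% of satellite glia, which should lack it. For Slc17a8 the shares were 56.9%, 0.924% and 0%. Ceacam10 was found in 43.1%, 0.142% and 0.803%, so its few UMIs in other neurons were no more frequent than in the glia. Whether they are background was not tested. Of 232 Th cells, 128 held all 3 naming markers and 1 held none. No Th UMI was counted in 19 cells, of which 15 had Slc17a8, 18 had Fam19a4, and each had Zfp521, Gfra2, P2ry1 and Piezo2. Between 8 and 13 of the 13 C-LTMR genes were seen per Th cell, with a median of 12. At least 9 of them were seen in 230 of 232 Th cells, 9 of 58 NF2_Ntrk2.Necab2 cells, 7 of 900 NP_Mrgprd cells and 0 of 249 satellite glia, whose median depth was 17729 UMIs.

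In total, 109 genes (0.943% of 11561 tested in pairs) were higher in Th neurons than in each of the 11 other neuron types, and 75 (0.649%) were lower than in each, a count that fell to 49 without mouse 4. The 15 furthest above the other neurons span 10.38 to 6.11 on the log2 scale. After Ceacam10 came Nccrp1 (63.6, 23.6, 12.6, 27.49 and 21.9 CPM in mice 1 to 5, 0.0294 in other neurons) and C1ql4, a secreted C1q-like protein (25.1, 16.7, 38.7, 13.4 and 18.05 against 0.0270 CPM). Both were high in every mouse relative to the other neurons and varied several-fold between mice. Cacna1i, the T-type calcium channel Cav3.3, measured 37.6, 62.2, 47.1, 62.6 and 42.3 CPM against 0.0474, and had a UMI in 91.4% of Th cells and 0.178% of other neurons. Bmp15, a growth factor of the TGF-β family best known from the oocyte, measured 43.4, 43.7, 32.8, 40.9 and 35.1 CPM against 0.0828. The cells with the next most Bmp15 were endothelial, at 4.49 ± 6.31 CPM.

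Others of the 15 were Slc51a, a subunit of an organic solute transporter (31.6 against 0.0995 CPM), the signalling protein Wnt11 (8.46 against 0.0237), the histone methyltransferase Smyd1 known from muscle (23.4 against 0.0941), the diacylglycerol kinase Dgkk (52.02 against 0.520) and Tmem221 (7.17 against 0.0771). Wfdc2, a secreted protein of the protease-inhibitor type, measured 446, 291, 263, 219.6 and 164 CPM in mice 1 to 5 against 3.10 ± 0.590 CPM. The row named only ENSMUSG00000076612, which the gene table pairs with the immunoglobulin constant-region symbol Ighg2c, measured 132, 101, 114, 172 and 141 CPM against 1.96 ± 0.219. Genes of this class are near copies of each other, so which of them was read is uncertain. The serine protease Prss23 was set apart among neurons (26.2 against 0.326 CPM) but not among all cells: satellite glia had 68.02 ± 15.3 CPM and endothelial cells 80.1 ± 22.03 CPM.

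**Figure D2:**
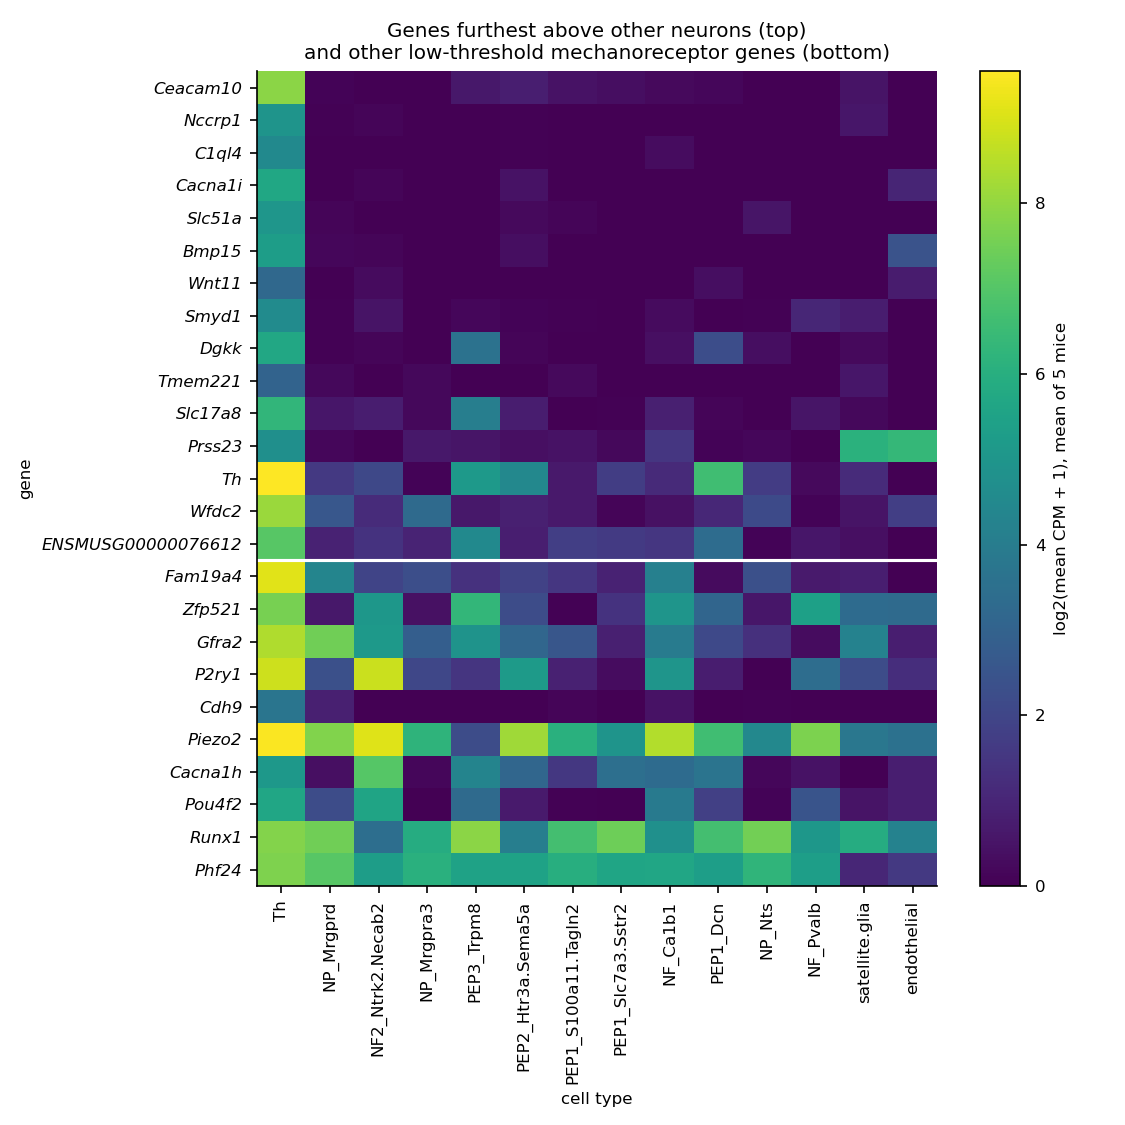
Levels, as log2 of the mean CPM of 5 mice plus 1, of the 15 genes furthest above the other neurons (upper block) and of 10 more C-LTMR genes (lower block) in Th neurons and 13 other cell types. The upper block is bright in the Th column, with Prss23 also at 68.02 CPM in satellite glia, while P2ry1, Piezo2, Cacna1h and Pou4f2 of the lower block are also bright in NF2_Ntrk2.Necab2.

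Receptor chains for interferon-γ moved apart, an observation chosen after the values were seen. Ifngr1, the ligand-binding chain, was lower than in each of the 11 types, at 0, 1.56, 0.840, 0.320 and 0.694 CPM in mice 1 to 5 against 13.1 ± 3.65 CPM in the other neurons (log2 fold change -3.89 ± 0.35). Ifngr2, the accessory chain, was higher than in each, at 266, 219, 236, 292 and 314 CPM against 60.3 ± 4.82 (2.16 ± 0.12). Secreted proteins among the 109 genes, named by the same late choice, were the neuropeptide Nmu (12.47 against 0.335 CPM), the chemokine Ccl1 (46.8 against 1.97), the activin antagonist follistatin, Fst (43.7 against 1.76), and the hedgehog ligand Dhh (15.8 against 2.74).

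Beyond Th itself, most genes of catecholamine synthesis were absent or low. Of 15 measured genes for catecholamine synthesis, cofactor supply and transport, 8 were tested, 3 were higher and 2 lower, with a median log2 fold change of 0.27. No UMI was counted in any Th cell for Ddc, which makes dopamine from DOPA, for Dbh and Pnmt, which make noradrenaline and adrenaline, or for Maob, and 0 of 13913248 UMIs allows up to 0.216 CPM. The vesicular monoamine transporter Slc18a2 was at 0.954 ± 0.472 CPM against 0.662 ± 0.349, too low to be tested. Gch1, which begins the synthesis of the TH cofactor tetrahydrobiopterin, measured 0, 0.446, 0.420, 0 and 1.04 CPM against 10.6 ± 1.49 CPM (log2 fold change -4.58 ± 0.37, adjusted p = 5.0e-08). It was at 0 in 2 mice and lower in all 5 than in the other neurons of the same mouse, and by type NF2_Ntrk2.Necab2 was as low, at 0.348 ± 0.4999 CPM. Qdpr, which regenerates that cofactor, was also lower (86.2 against 205 CPM), whereas Pcbd1, which acts in the same recycling, was higher (302 against 122), as was the monoamine oxidase Maoa (99.50 against 42.3). PEP1_Dcn, the type with the next most Th, had 397 ± 38.9 CPM of Pcbd1.

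Among the vesicular transmitter transporters, 1 of 3 tested was called, namely Slc17a8. Slc17a7, which encodes VGLUT1, measured 0, 0.892, 0.420, 0.320 and 0.694 CPM in Th neurons against 46.6 ± 15.9 CPM, with most of it in NF_Pvalb at 489 CPM. Its log2 fold change of -6.29 ± 0.41 passed the test, but fewer than 25% of the other neurons had a UMI. Slc17a6, which encodes VGLUT2, measured 195, 185, 186, 189.8 and 193 CPM against 151 ± 15.6 and was not called.

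TAFA4 was the only called member of its family of 5 secreted proteins. Fam19a2 was at 0.672 ± 0.281 CPM against 23.2 ± 6.41 and Fam19a1 at 1.32 ± 0.813 against 12.3 ± 4.89, both past the test but below the minimum share of cells. Fam19a3 and Fam19a5 were at 7.69 and 8.29 CPM, against 5.84 and 14.8 CPM.

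Genes for sensing force changed in opposite directions. Of 15 measured mechanotransduction genes 14 were tested, and only Piezo2 was higher while 7 were lower, giving a median log2 fold change of -2.38. Without mouse 2 or without mouse 3 a second gene was called higher. The acid-sensing channel Asic3 measured 0.964, 0.669, 0.420, 0.959 and 0.694 CPM against 42.8 ± 21.6, and was lower in each mouse. It was not called against NP_Mrgprd (log2 difference -0.26 ± 0.82, adjusted p = 0.81) or NF2_Ntrk2.Necab2 (0.38 ± 1.54, adjusted p = 0.87). Mechanically and thermally modulated potassium channels of the tandem-pore family were nearly silent, with Kcnk2 at 0.515 against 25.46 CPM, Kcnk4 at 0.148 against 5.81 and Kcnk18 at 1.03 against 15.9. Kcnk4 was below each of the 11 other types. The membrane protein Stom (0.381 against 17.52 CPM) and the channels Tmem63a (0.479 against 9.90) and Tmem63c (4.81 against 14.8) were lower too. Stom and Tmem63a were lower than in NP_Mrgprd but not called against NF2_Ntrk2.Necab2 (-1.48 ± 0.85 and 0.87 ± 1.43 on the log2 scale).

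Voltage-gated channels differed gene by gene. Of 11 tested sodium channel genes 2 were higher and none was lower: the α subunit Scn3a, at 27.9, 24.7, 27.3, 28.1 and 25.3 CPM in mice 1 to 5 against 4.45 ± 0.873, and the β subunit Scn3b, at 55.9, 101, 48.7, 95.2 and 81.6 against 27.1 ± 4.53 CPM. Scn3a was even across mice, and PEP3_Trpm8 had 35.4 CPM, a log2 difference of -0.45 (adjusted p = 0.078). The nociceptor channels Scn10a and Scn11a stood at 100.4 and 88.4 CPM against 197 and 172 CPM, with log2 fold changes of -0.92 ± 0.12 and -0.92 ± 0.10 that did not reach 2-fold. Without mouse 4 they were -1.03 and -1.003 and 3 sodium channel genes were called lower, and without mouse 5 there was 1.

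Of 12 calcium channel genes 3 were higher, namely the T-type channels Cacna1h and Cacna1i and the auxiliary subunit Cacna2d3 (27.6 against 11.6 CPM). The L-type channel Cacna1c was lower, at 0, 1.56, 0.420, 0.959 and 1.04 CPM in mice 1 to 5 against 33.7 ± 4.22, without overlap (log2 fold change -5.04 ± 0.25). Of 32 potassium and HCN channel genes 6 were higher and 10 lower. The A-type channel Kcnd3 measured 244, 295, 237, 303 and 262 CPM against 31.51 ± 6.67, higher than in each other type, and its partner Kcnip2 (160.1 against 77.6 CPM) and the A-type channel Kcna4 (56.7 against 14.51) were higher as well. The inward rectifier Kcnj12 (236 against 49.6), Kcnc2 (34.02 against 15.4) and Hcn3 (37.4 against 18.1) made up the rest. Kcnip2 lost its call without mouse 3 (log2 fold change 0.92) and Hcn3 without mouse 1 (0.95). By type, Kcnip2 was higher than in NF2_Ntrk2.Necab2 (log2 difference 5.94 ± 0.44) and not called against NP_Mrgprd (-0.17 ± 0.22, adjusted p = 0.54). On the lower side, Kcns3 was at 2.67 against 60.7 CPM, Kcnc4 at 4.64 against 53.99 and Kcnn2 at 0.920 against 6.997. No UMI of Kcnq5 was counted in a Th cell, so it was at least 38.9-fold lower than the 8.39 CPM of the other neurons, taking 3 counts over all Th cells as the floor.

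Transcription factors of sensory neuron identity differed in both directions. Of 27 tested, 5 were higher and 4 lower. Casz1, a zinc-finger factor, measured 357, 389.9, 319, 423 and 388 CPM against 62.96 ± 5.64 and, with Zfp521, exceeded each other type. Pou4f1, the pan-sensory factor BRN3A, was at 536 ± 80.99 against 180.4 ± 10.3 CPM, and Tlx3, a selector of glutamatergic identity, at 329.6 ± 40.8 against 149 ± 11.3. Lower were Bcl11b (0.114 against 15.4 CPM), Etv1 of proprioceptors (1.44 against 73.3), Satb1 (8.17 against 26.8) and Zeb2 (0.337 against 23.9). Zeb2 was seen in 84.7% of satellite glia and 2.16% of Th cells. Runx3, the counterpart of Runx1 in proprioceptors, was at 0.148 ± 0.206 CPM in Th neurons and 149 CPM in NF_Pvalb.

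Receptors for neurotrophic factors differed in both directions. Of 11 tested, Gfra2, the shared signalling receptor Ret and Sorcs1 were higher. Ret measured 420.1, 526, 421, 503 and 479 CPM against 230.4 ± 29.8 CPM (log2 fold change 1.06 ± 0.12), and the groups did not overlap. Without mouse 4 the fold change was 0.99 and not called, and without mouse 3 there were 5 higher genes in the list. By type, Ret was higher than in NF2_Ntrk2.Necab2 (log2 difference 3.46 ± 0.25) and not called against NP_Mrgprd (0.43 ± 0.20, adjusted p = 0.066). The co-receptors Gfra1 (1.48 against 44.1 CPM) and Gfra3 (1.65 against 95.99) were also lower.

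Of 14 tested TRP channels and Mas-related receptors, a group that holds receptors of pain and itch neurons, 6 were lower, 2 were higher and 6 were not called. Trpv1, the capsaicin receptor, measured 0, 0.446, 0.420, 0.320 and 1.74 CPM against 78.4 ± 18.1, and Mrgprd, the β-alanine receptor that names NP_Mrgprd, measured 0.964, 0.223, 0.840, 1.28 and 1.04 against 104 ± 15.7 CPM. Both were near 0 in all 5 mice. Trpa1, the receptor for irritants, was lower but present, at 14.45, 13.6, 16.4, 14.7 and 15.97 CPM against 31.2 ± 5.85 CPM, and was seen in 55.6% of Th cells. Its log2 fold change of -1.03 ± 0.16 was -0.96 and not called without mouse 2. The higher genes were Trpv4 (7.71, 5.57, 6.30, 8.95 and 4.17 against 0.137 ± 0.0685 CPM, log2 fold change 5.57 ± 0.33) and Trpc4 (7.11 ± 2.90 against 2.51 ± 0.559 CPM).

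Of 12 tested neuropeptide genes none was higher and 7 were lower, with a median log2 fold change of -4.70. Calca, the gene of calcitonin gene-related peptide, measured 16.4, 31.9, 64.3, 52.1 and 83.997 CPM against 3278 ± 456 CPM, a log2 fold change of -5.97 ± 0.30. Satellite glia, which should lack it, had 170.5 ± 104 CPM, more than the Th neurons. At 10000 UMIs per cell a UMI of Calca was found in 36.6% of Th cells and 69.48% of satellite glia. Unthinned, the shares were 90.9% at a median of 56281 UMIs and 87.95% at 17729. Whether Calca in Th cells is background was not tested. Against NF2_Ntrk2.Necab2 Calca differed by 0.82 ± 0.37 on the log2 scale (adjusted p = 0.066) and was not called. Tac1, the gene of substance P, was lower but kept 392, 299, 283, 159 and 299.5 CPM against 1145 ± 202, and satellite glia had 35.7 ± 21.8 CPM. Bdnf was below each of the 11 other types, at 13.49, 11.8, 13.9, 8.95 and 19.1 CPM against 223 ± 18.6. Galanin (Gal, 2.46 against 234 CPM), Adcyap1 (1.04 against 60.7), Nmb (61.48 against 551) and Cartpt (20.03 against 152) completed the list.

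Among inhibitory G protein-coupled receptors, 17 were tested, 2 were higher and 4 lower, and the median was -3.49 (-3.19 with genes at 0 in Th neurons set to their bound). No UMI was counted in any Th cell for the opioid receptors Oprm1, Oprd1 and Oprk1, nor for Sstr2 and Adra2a. Gpr35 measured 47.2, 47.9, 51.7, 57.2 and 53.45 CPM against 20.6 ± 2.48, and Htr1d, a serotonin receptor targeted by triptans, 30.8, 30.99, 34.03, 48.3 and 45.47 against 10.7 ± 2.42. In neither gene did the groups overlap, but Htr1d was lower than in NF2_Ntrk2.Necab2 (log2 difference -1.40 ± 0.21, adjusted p = 9.2e-08). The cannabinoid receptor Cnr1 (0.198 against 20.46 CPM), Npy1r (2.75 against 34.3), Npy2r (0.679 against 31.1) and the glutamate receptor Grm7 (8.76 against 30.3) were lower. Against NP_Mrgprd, Npy1r differed by 1.44 ± 0.65 on the log2 scale (adjusted p = 0.054) and Npy2r by 0.53 ± 0.80 (adjusted p = 0.60). Neither was called there or against NF2_Ntrk2.Necab2 (adjusted p = 0.21 and 0.18), whereas Cnr1 was lower than in both types.

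Of 28 tested purinergic, serotonin and ionotropic receptor genes 6 were higher and 7 lower. GABA-A receptor subunits were among the higher ones, with Gabra3 at 26.98, 23.6, 18.9, 23.01 and 21.2 CPM in mice 1 to 5 against 2.59 ± 0.456 and Gabra2 at 17.9 ± 5.28 against 7.38 ± 2.43. The metabotropic P2ry1 and P2ry2 (8.36 against 4.03 CPM) were higher, whereas the ATP-gated channel P2rx3 was lower, at 5.78, 30.8, 11.3, 20.45 and 9.02 CPM against 169.9 ± 17.2. By type, P2ry2 was higher than in NP_Mrgprd and NF2_Ntrk2.Necab2 and lower than in NP_Mrgpra3 (log2 difference -1.40 ± 0.27, adjusted p = 1.2e-05). AMPA receptor subunits divided: Gria3 was higher (8.06 against 3.05), and Gria1 (6.13 against 15.6), Gria2 (6.39 against 21.3) and Gria4 (3.88 against 14.4) were lower. Gria3 was higher than in NP_Mrgprd (log2 difference 5.99 ± 0.37) and not higher than in NF2_Ntrk2.Necab2 (-0.998 ± 0.28, not called). Htr3a (1.91 against 88.2) and Htr3b (0.708 against 14.9), the subunits of the serotonin-gated channel, and the nicotinic subunit Chrna6 (2.65 against 28.9) were lower.

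**Figure D3:**
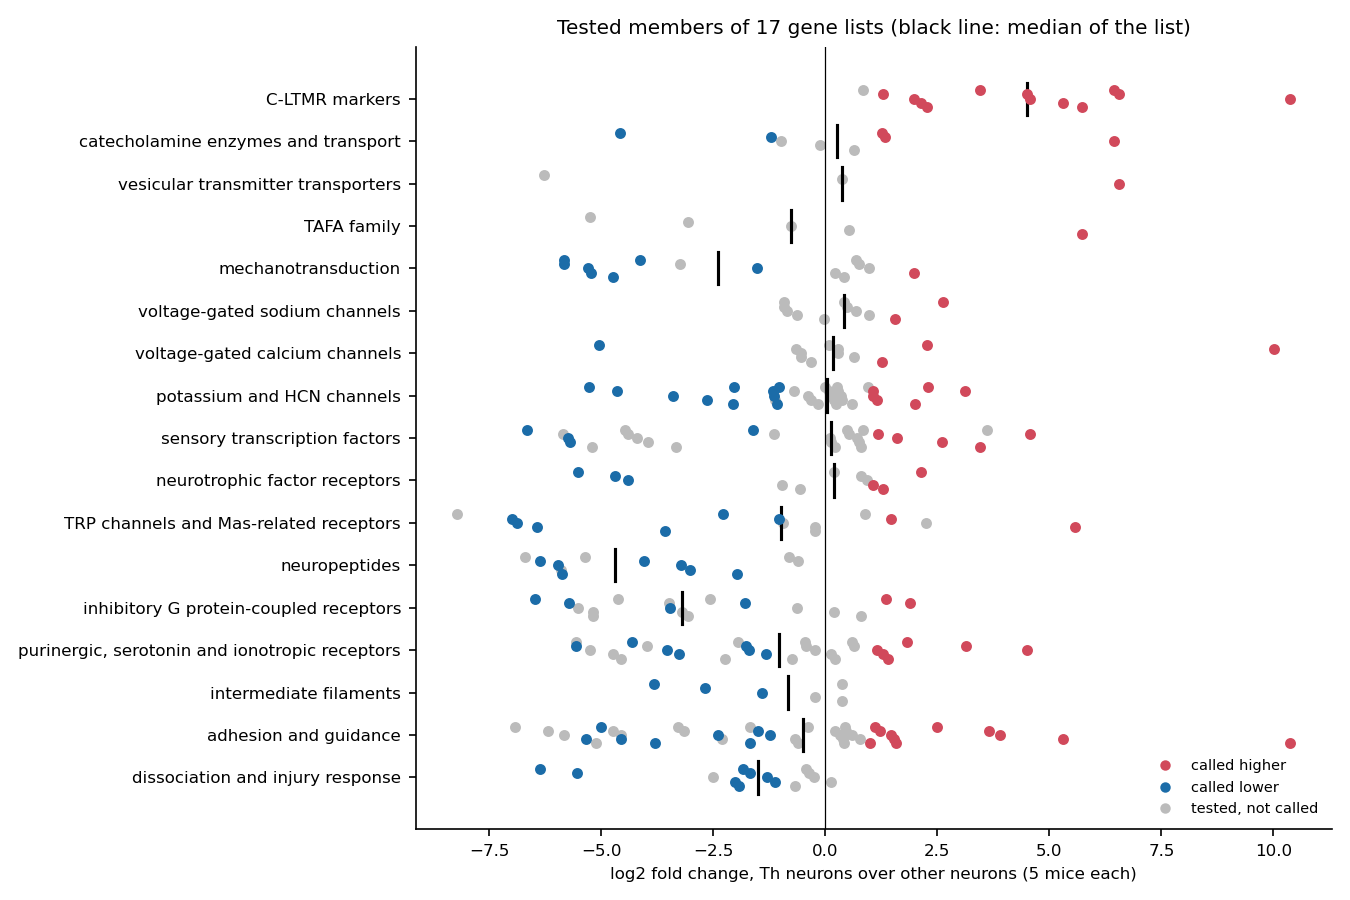
Log2 fold change of Th neurons over other neurons for the tested members of 17 gene lists, with red points for genes called higher, blue for called lower, grey for the rest and a black line for the median. Genes at 0 in Th neurons are drawn at the bound that 3 counts allow. The C-LTMR list lies furthest to the right at a median of 4.49, and the neuropeptides lie furthest to the left at -4.70.

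Neurofilament genes, which are high in neurons with thick axons, were low. Of 6 tested intermediate filament genes the 3 neurofilament genes were lower: Nefh measured 66.48, 89.4, 84.9, 59.1 and 83.7 CPM against 1127 ± 419, Nefm 197 ± 29.4 against 1292 ± 376 and Nefl 963 ± 163 against 2641 ± 659. Peripherin, Prph, the filament of small neurons, stood at 5598 ± 525 against 4445 ± 313 CPM and was not called. Of 40 adhesion and guidance genes 11 were higher and 8 lower. Besides Ceacam10 and Cdh9, the cadherin Cdh10 (19.1 ± 5.46 against 1.38 ± 0.673 CPM) exceeded each other type, and Sema3e (59.7, 60.4, 49.999, 64.9 and 56.9 CPM against 4.95 ± 3.41) and the semaphorin receptor Nrp1 (255, 309, 269, 375 and 346 against 57.2 ± 17.48) were higher in all 5 mice. Nrp1 was shared with NF2_Ntrk2.Necab2, which had 324 CPM of it, a log2 difference of -0.13 ± 0.21 (adjusted p = 0.64). Cntnap2 was below each other type (15.8 against 85.9 CPM), and Plxnd1 (0.728 against 35.7) and Epha5 (0.558 against 21.46) were nearly absent.

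Genes that cell dissociation and nerve injury induce were lower than in the other neurons together, or not called. Of 14 tested 8 were lower and none was higher, with a median log2 fold change of -1.49. By type this differed. Of 15 tested in pairs, 6 were lower and none higher than in NP_Mrgprd. Against NF2_Ntrk2.Necab2, 4 were higher (Ier2, Jun, Junb and Jund) and 2 lower (Gal and Gap43), with Jun at a log2 difference of 1.75 ± 0.23. The immediate-early gene Jun measured 111, 80.7, 103, 88.53 and 93.7 CPM against 365 ± 58.3, Egr1 15.6 ± 3.35 against 57.1 ± 4.89 and Fosb 11.1 ± 3.56 against 49.1 ± 9.66. The growth-associated Gap43 was at 3.85, 20.1, 4.62, 4.79 and 6.25 CPM against 438 ± 62.47, higher in mouse 2 than in the others but far below each sum of other neurons. The part of the dissociation in the other differences was not tested.

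Among the genes furthest below the other neurons was Ly86, which encodes the MD-1 protein. It measured 0.964, 2.90, 2.52, 3.52 and 5.55 CPM in Th neurons against 593 ± 177 CPM in other neurons, a log2 fold change of -7.43 ± 0.31 (adjusted p = 3.1e-11). Scg2, the granule protein secretogranin II, was at 0.964, 2.90, 3.36, 2.24 and 12.50 CPM against 453 ± 110.5 and was below each other type. Its value in mouse 5 was the highest but still far below the 359.8 to 621 CPM of the other neurons. Further genes of this group were Gpx3 (3.04 against 282 CPM), Faim2 (0.782 against 63.9), the synaptic vesicle gene Sv2b (0.727 against 66.54), Vat1l (0.460 against 61.9) and Mical1 (0.625 against 66.7). Against NP_Mrgprd, Gpx3, Faim2 and Sv2b differed by -0.90 ± 0.77, -0.49 ± 0.62 and 0.15 ± 0.60 on the log2 scale, and none was called. Faim2 and Sv2b were lower than in NF2_Ntrk2.Necab2 (-5.25 ± 0.47 and -7.19 ± 0.35), and Gpx3 was not (0.19 ± 1.31). All UMIs of Mical1 came from mouse 5. Among genes lower than each of the 11 types, Sh3rf1 and Dpf1 had no UMI in any Th cell and were at least 22.6-fold and 17.8-fold lower than the 4.87 and 3.83 CPM of the other neurons, and Cnksr2 was at 0.0694 against 8.42 CPM.

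Markers of satellite glia were at the level of the other neurons. Summed over 10 satellite glia genes, Th neurons had 358 to 668 CPM, other neurons 447 to 657 and the glia themselves 108779.9, and none of the 7 tested was called. Of 6 tested Schwann cell genes 3 were higher in Th neurons. Pmp22 measured 1806, 1531, 1767, 1247 and 1303 CPM against 439.8 ± 36.3 and Mbp 213, 238, 168, 226 and 175 against 11.05 ± 3.35, both above each other neuron type, and Pllp 9.87 ± 2.14 against 0.767 ± 0.157. The defining Schwann cell genes Prx, Egr2 and Mag were at 0.434, 0.0892 and 0.0694 CPM against 0.116, 2.20 and 0.0393 CPM. Of 9 endothelial genes 1 was tested, Egfl7 (139 ± 14.47 against 45.1 ± 5.38 CPM), which was higher, while Kdr, Flt1 and Emcn had no UMI in a Th cell. Of the 5 fibroblast and 8 macrophage genes none reached the level to be tested. Of 14 markers of other sensory neuron types 5 were lower and Necab2 was higher (71.02 against 18.7 CPM), and of 7 general neuron markers only Tubb3 was called, lower at 1690.2 ± 216 against 3471 ± 343 CPM (log2 fold change -1.01 ± 0.11, and -0.99 without mouse 1, not called). Without mouse 2, 1 satellite glia gene was called lower.

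Per cell, Th neurons held fewer UMIs and a larger mitochondrial share than the other neurons of the same mouse pooled. The median was 72805, 70110.0, 61038, 52015 and 47431 UMIs in mice 1 to 5 against 85699, 83020.5, 63731, 64893 and 58529 in the other neurons. It was lower in 5 of 5 mice, with a difference of -0.23 ± 0.10 on the log2 scale (SD, n = 5). Flipping the signs over mice gave an exact two-sided p = 0.0625, and a design of 5 mice cannot go lower. Over all cells the medians of the neuron types ran from 30800.5 UMIs in PEP3_Trpm8 to 105150.0 in NP_Mrgprd, with Th neurons between them at 56281. At an equal depth of 20000 UMIs, Th neurons showed 4584 genes and the others 4504, a difference of 80.0 ± 38.8 (SD) in the same direction in 5 of 5 mice (exact p = 0.0625). That difference depends on the types pooled: over all cells the median was 4575 genes in Th neurons, 4279 in the 900 NP_Mrgprd cells and 4832 in NF_Ca1b1. The mitochondrial share was 5.27, 7.73, 6.75, 7.52 and 7.10% against 4.16, 5.09, 4.90, 4.18 and 4.38%, higher in 5 of 5 mice by 2.33 ± 0.864 percentage points (exact p = 0.0625). By type, Th neurons did not stand alone: NF_Ca1b1 had 7.24, 7.98, 6.88, 7.77 and 6.42% in mice 1 to 5, above Th neurons in mice 1 to 4, and a neurofilament type was the highest in each of these mice. Without the cells above 10% the genes called higher numbered 688 and the genes called lower 863.

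**Figure D4:**
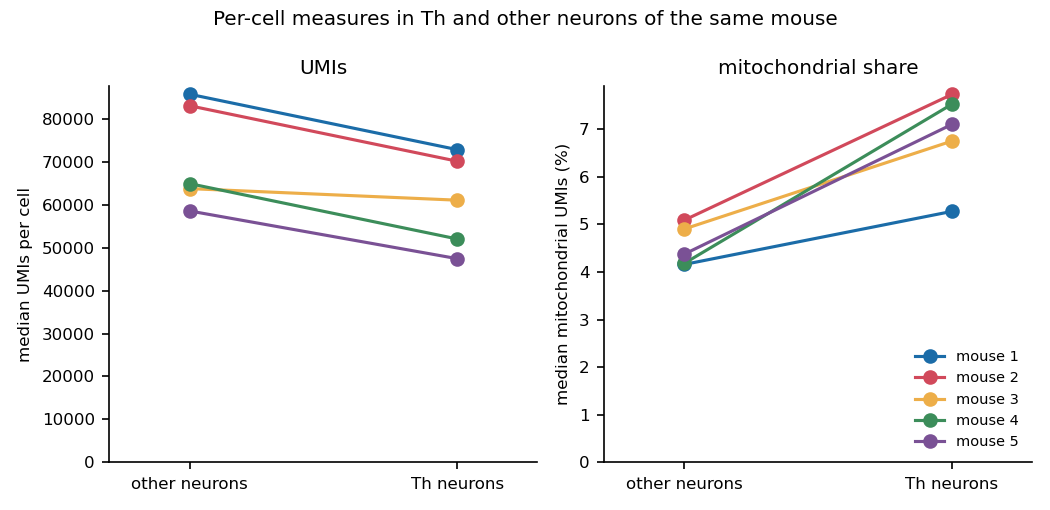
Median UMIs per cell and median percentage of mitochondrial UMIs in other neurons and Th neurons, with a line joining the values of a mouse. Each line falls for UMIs and rises for the mitochondrial share from other neurons to Th neurons.

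Over all genes the Th profile lay nearest to NP_Mrgprd. The correlation of log2(CPM + 1) across 16248 genes, given as a description because genes are not independent and each pair of sums shares a library, was 0.927 ± 0.00686 with NP_Mrgprd (SD, n = 5). This type ranked first in 5 of 5 mice, ahead of NF2_Ntrk2.Necab2 at 0.908 ± 0.0229 and NP_Mrgpra3 at 0.903 ± 0.0141, and NF_Pvalb was the least like at 0.862. The NF2_Ntrk2.Necab2 sums held 3 to 27 cells per mouse. In the pairwise fit, where all comparisons share the Th sums, 1437 genes (12.4% of 11561) were higher and 1069 (9.25%) lower than in NP_Mrgprd, and 1125 (9.73%) were higher and 1278 (11.1%) lower than in NF2_Ntrk2.Necab2.

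Each of these types resembled Th neurons in other genes. Against NF2_Ntrk2.Necab2, the touch genes Piezo2, P2ry1 and Pou4f2 differed by 0.34 ± 0.22, -0.02 ± 0.20 and -0.03 ± 0.24 on the log2 scale, and none was called. Cacna2d3, Kcnj12, Hcn3 and Gabra2, higher than in the other neurons together, were not called against this type either (adjusted p = 0.95, 0.18, 0.66 and 0.97). Against NP_Mrgprd all but Hcn3 were called higher. Against NP_Mrgprd, Piezo2, P2ry1 and Pou4f2 differed by 1.59 ± 0.22, 6.67 ± 0.26 and 3.58 ± 0.25, and all were called higher in Th neurons. Runx1 showed the reverse: the difference was 0.17 ± 0.16 from NP_Mrgprd (adjusted p = 0.39) and 4.59 ± 0.26 from NF2_Ntrk2.Necab2 (adjusted p = 2.7e-23). For Nefh the log2 difference from NF2_Ntrk2.Necab2 was -4.56 ± 0.22. From NP_Mrgprd it was -0.89 ± 0.19, short of 2-fold, and from NP_Mrgpra3 -0.06 ± 0.21 (adjusted p = 0.84). By list, 7 of 11 sodium channel genes were higher than in NP_Mrgprd and 6 than in NF2_Ntrk2.Necab2. For potassium and HCN channels, 15 of 33 were higher and 8 lower than in NP_Mrgprd, and 6 were higher and 11 lower than in NF2_Ntrk2.Necab2.

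Th neurons also varied among themselves in the gene that names them. In the 224 cells with at least 20000 UMIs, thinned to that depth, the Th count ran from 0 to 58 UMIs with a median of 13, and 32 cells had none. Ceacam10 was at 0 in 103 cells and reached 42 UMIs in another, with a 90th percentile of 12. Fam19a4 was at 0 in 1 cell, with a median of 11. The rank correlation with Th was taken within each mouse over 7488 genes. It is a description over cells that share a library and a depth, and the genes named were chosen after the values were seen. It averaged 0.50 (0.39 to 0.65) over mice for Rgs4, a regulator of G protein signalling, 0.49 (0.17 to 0.64) for Ostf1 and 0.40 (0.29 to 0.48) for Calcb, the gene of β-CGRP, with the lowest and highest mouse in parentheses. The most negative values belonged to Ndrg2 at -0.49 (-0.66 to -0.18) and Gpx2 at -0.47 (-0.58 to -0.33).

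Ndrg2 was at 0 in 129 of the 224 cells, and its counts of up to 14 UMIs lay mostly in cells with few Th UMIs. It is also a gene of satellite glia, where every cell had a UMI and the level was 832 CPM, against 73.6 ± 21.2 CPM in Th neurons. Among the other neuron types NF2_Ntrk2.Necab2 had the most Ndrg2, at 376 CPM. Summed over their lists, satellite glia markers correlated with Th at -0.08 (-0.21 to 0.21) and markers of other sensory neuron types at -0.18 (-0.38 to 0.05), and their part in the relation was not tested. Gpx2 was seen in 0.402% of satellite glia, and its highest level among the other neuron types was 23.7 CPM, in NF2_Ntrk2.Necab2. Total UMIs of the cell correlated with Th at 0.27 (0.08 to 0.45) and the mitochondrial share at 0.11 (-0.08 to 0.25). The other naming markers did not follow Th from cell to cell, at 0.02 (-0.34 to 0.31) for Slc17a8 and an average near 0 for Ceacam10 (-0.47 to 0.33), while Fam19a4 stood at 0.28 (-0.13 to 0.56) and Phf24 at -0.26 (-0.37 to -0.09).

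**Figure D5:**
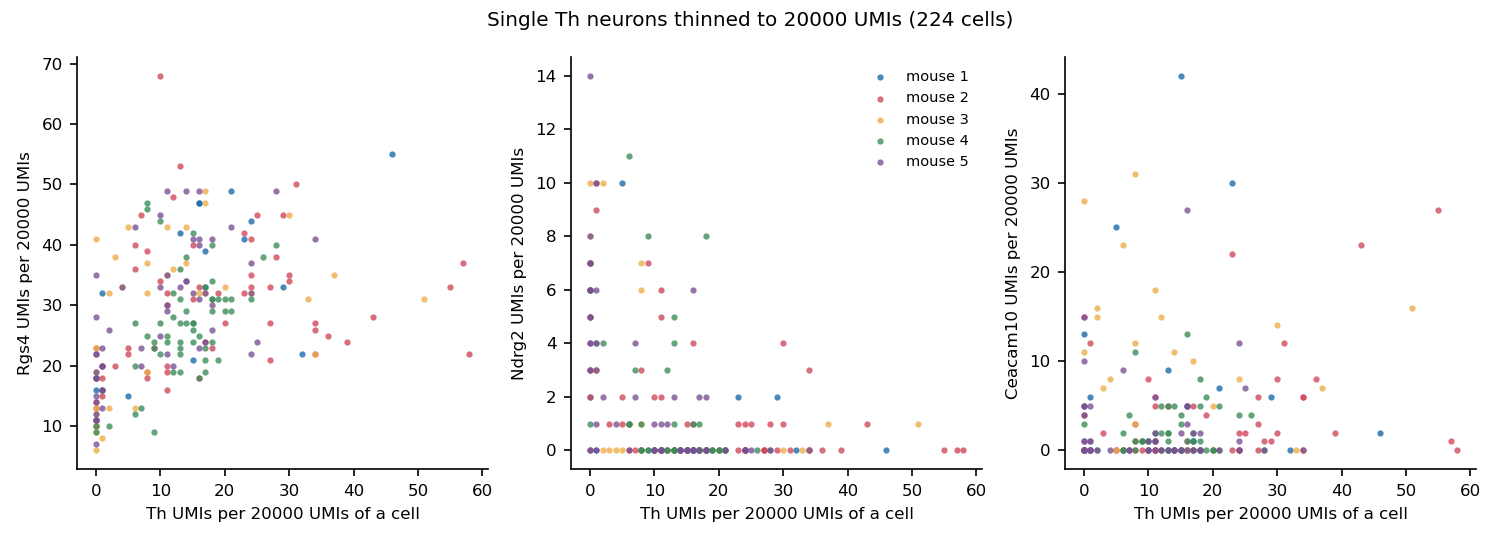
UMIs of Rgs4, Ndrg2 and Ceacam10 against UMIs of Th in the 224 Th neurons thinned to 20000 UMIs, with a point per cell coloured by mouse. Rgs4 is higher and Ndrg2 lower where Th is high, at mean within-mouse rank correlations of 0.50 and -0.49, and Ceacam10 shows no such order.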

How the data were processed

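Cells of lumbar dorsal root ganglia from 5 mice were profiled by droplet single-cell RNA-seq. The authors counted UMIs with Cell Ranger on mm10, clustered and named the cells with Seurat, and deposited raw counts per gene and cell without normalization, together with the cell type of each cell. The study states that cells above a mitochondrial share of 10% were removed. Counted over 37 mitochondrial rows, 188 deposited cells exceed it, 29 of them Th, and these were kept. Names of types were used unchanged, no doublet caller was run, and 1 Th cell exceeded 2 times the median UMIs of its type and library. Of the 17271 rows, 4 that name no mouse gene and hold 6.4e-05% of UMIs (2 UMIs in Th cells) were left out.

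UMIs were summed per type and library and tested with edgeR 4.0.16 in R 4.3.3 (filterByExpr, TMM, quasi-likelihood test), and p-values were adjusted over all genes tested by the Benjamini-Hochberg procedure. One fit held the Th and other-neuron sums, and another the 60 sums of 12 neuron types. The median log2 fold change of all genes was 0.02. The fits were tested on simulated data. Both sums of a mouse come from the same animal. After removal of group means their correlation across 11770 genes was 0.088, 0.318, 0.236, 0.056 and 0.173 in mice 1 to 5. The main fit has no mouse term and the replicate block was an alternative. Libraries may differ by animal and by preparation, which cannot be told apart. The libraries held 13050389 to 88886975 UMIs. Intervals cover counting error only.

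The members, gene lists and rules were chosen with earlier results of these data known. Named are Th, Slc17a8 and Ceacam10, list members that were called or define their list, the 15 genes with the largest fold change among those called higher than other neurons and each other type, the 10 lowest of those called lower at 50 CPM or more in other neurons, the 5 lowest of those below each type, and the 5 most variable between mice at 50 CPM or more. A gene outside these is said to be chosen after its values were seen. List members without a row were not analysed here, and a few other genes are not reported here. Promoter windows are from RefSeq on GRCm38.p6, matched by symbol, with Fam19a4 listed there as Tafa4.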

Additional observations from a re-analysis of the deposited data

Results flagged for a closer look

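Dixon's 95% limit is a gap to the nearest mouse of over 0.71 of the whole range. Chance flags about 1 in 20 sets of continuous values. In 14 of 160 sets of 5 mice, a mouse stood apart from the other mice by more than this limit. In mouse 5 these were Cnksr2 at 0.347 CPM (the next mouse 0, other neurons 6.43 to 10.47), Mag at 0.347 CPM (the next mouse 0, other neurons 0 to 0.107), Mical1 at 3.12 CPM (the next mouse 0, other neurons 57.7 to 81.9), Scg2 at 12.50 CPM (the next mouse 3.36, other neurons 359.8 to 621) and Trpv1 at 1.74 CPM (the next mouse 0.446, other neurons 59.53 to 103). In mouse 3 these were Hspa5 at 331 CPM (the next mouse 139, other neurons 164 to 259.7), Maoa at 155 CPM (the next mouse 92.7, other neurons 40.1 to 44.8), Nefl at 1240.3 CPM (the next mouse 949, other neurons 2059 to 3488) and Wnt11 at 13.02 CPM (the next mouse 8.25, other neurons 0 to 0.0544). In mouse 2 these were Egr2 at 0.446 CPM (the next mouse 0, other neurons 1.65 to 3.30), Gap43 at 20.1 CPM (the next mouse 6.25, other neurons 350.3 to 512) and Pllp at 13.6 CPM (the next mouse 9.64, other neurons 0.517 to 0.952). In mouse 1 these were Gria3 at 11.6 CPM (the next mouse 7.58, other neurons 2.07 to 4.60) and Kcnn2 at 0 CPM (the next mouse 0.959, other neurons 5.86 to 9.78). For Hspa5 the Th sum of mouse 3, and for Mag that of mouse 5, lay above every sum of other neurons, and for the remaining genes the Th sums of all 5 mice lay on the same side of the other neurons. For Cnksr2, Egr2, Mag and Mical1 only 1 mouse had a UMI, so the gap is the whole range by construction and the rate of 1 in 20 does not apply. The Cnksr2 value is 1 UMI, and the Mag value of the same mouse is equal to it.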

How the results depend on the processing

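The counts of genes higher and lower in Th neurons than in the other neurons were 722 and 839. They were 721 and 847 with the replicate block, 673 and 886 with DESeq2, 671 and 887 with its size factors, and 668 and 892 without the filter on low counts, where the median log2 fold change of all genes was -0.15 in place of 0.02. Leaving out a mouse gave 671 to 733 and 851 to 874. Against all other cells they were 709 and 868. Without a minimum share of cells 1458 genes were lower. The count below each other type, 75, ranged from 49 to 63 with a mouse left out, 49 being without mouse 4, and that above each ranged from 98 to 114. Without that minimum share the members lower numbered 12 of the transcription factors, 12 of the inhibitory receptors, 14 of the purinergic, serotonin and ionotropic receptors, 18 of the adhesion genes and 11 of the markers of other sensory neurons. The mean correlation with the other types was 0.861 over genes with at least 100 UMIs, with NP_Mrgprd still first. The replicate block changed no call of a gene named here. Of the fold changes of named genes, 1606 of 1620 values under the alternatives kept direction and side of the threshold. Those that did not, besides the genes given with a mouse left out, were Kcnip2 and Trpa1 without the cells above 10% mitochondrial share, Kcnip2 without cells above 2 times the median UMIs, and P2ry2, Trpa1, Tubb3 and Fam19a5 against all other cells. Genes under about 1 CPM in Th neurons rest on a few UMIs, and their fold changes depend on the prior count.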

Other observations

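Between mice, a few genes of Th neurons varied more than the markers did. Among genes at 50 CPM or more, the widest range belonged to Xist, the RNA of the inactive X chromosome, which measured 0, 0, 0, 468 and 466 CPM in the Th neurons of mice 1 to 5 and 0, 0, 0, 299 and 285 CPM in the other neurons. Mice 4 and 5 stood apart from mice 1 to 3 in both. Apoe, a lipoprotein gene that satellite glia express strongly, measured 21.2, 268, 235, 111 and 138 CPM in Th neurons and 113, 224, 227, 119.9 and 100.2 in the others. It was lowest in mouse 1, the library with 15 Th cells. The interferon-induced Ifi27l2a measured 57.8, 43.03, 25.2, 102 and 159 CPM against 79.4, 80.3, 38.7, 89.3 and 106 in the others, and Nmt1, an N-myristoyltransferase, 129, 235, 287, 54.7 and 68.4 against 126, 246, 284, 77.54 and 92.9. For both, the order of the mice in Th neurons was nearly that in the other neurons.

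Mouse 3 was the highest for tubulin genes and an endoplasmic reticulum chaperone gene in Th neurons. Tubb2a, a β-tubulin, measured 731, 715, 1804, 250.2 and 337 CPM in mice 1 to 5 and 895, 755, 1100.2, 755 and 691 CPM in the other neurons. Tubb4b and the chaperone gene Hspa5, named after their values were seen, were also highest in mouse 3, at 843 and 331 CPM, and lowest in mouse 4 at 175 and 95.9. The other neurons of mouse 3 were the highest for these genes as well. With 1 library per mouse, no test was made of these differences.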
